A study of Homo sapiens with 18 samples.

Results

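The 34 genes described here encode the human metallothioneins, the metal sensor MTF1 and the zinc transporters, measured in NB4 cells given all-trans retinoic acid (ATRA). They were chosen by symbol among the 18417 genes that have an array probe set annotated to them alone: the metallothionein 1 genes named with a letter, MT2A, MT3, MTF1, and every SLC30A and SLC39A gene. This gave 9 metallothioneins (MT1B, MT1E, MT1F, MT1G, MT1H, MT1M, MT1X, MT2A and MT3), MTF1, 10 SLC30A genes and 14 SLC39A genes. Where a gene had several probe sets, the one with the highest mean over the 18 arrays was taken. MT1L shares its probe set with NUTF2 and is no member. MT1A was not analysed here.

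NB4 is a human cell line grown from an acute promyelocytic leukemia, and ATRA, the acid form of vitamin A, drives it to mature along the neutrophil lineage. Wild-type NB4 cells and NB4 cells labelled TG2 knockout were left untreated or received 1 µM ATRA over 48 or 72 h, with 3 arrays in each of the 6 groups, and total RNA was hybridised to Affymetrix gene arrays. TG2 is transglutaminase 2, the product of TGM2. The labels call the arrays biological replicates and say no more about the cultures, so p-values measure the spread between these arrays. How the TG2 knockout cells were made, and whether they are 1 clone, is not given in the sources used here. Their titles say knockout while their sample codes carry KD, so TG2 knockout is used below only as their label. The design addresses how TG2 knockout cells differ from wild-type cells during ATRA-driven differentiation.

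The deposited values are taken as log2 signal. Every value below is such a level unless it is called a change, which is a difference of 2 group means. TGM2 read 6.43 ± 0.17 (SD, n = 3) in untreated wild-type and 6.39 ± 0.11 in untreated TG2 knockout cells. After ATRA it read 12.27 ± 0.18 at 48 h and 12.37 ± 0.18 at 72 h in wild-type cells, against 10.95 ± 0.37 and 11.24 ± 0.37 in the cells labelled TG2 knockout, so the label does not stand for an absence of TGM2 signal. The promyelocyte markers were uneven: group means ran from 11.99 to 12.69 for MPO and PRTN3, from 8.37 to 9.5 for AZU1, from 7.34 to 7.68 for ELANE and from 4.21 to 4.65 for KIT, and CTSG read 9.58 and 10.23 untreated against 7.03 to 7.46 after ATRA. Of the neutrophil markers, CSF3R, ITGAM, ITGAX and CXCR2 had higher means in all 4 ATRA groups than in both untreated groups, and CEACAM8 stayed between 5.23 and 5.62. Markers of other cell types had group means from 3.98 to 7.69 for 4 lymphocyte genes, from 4.42 to 7.18 for 4 monocyte and macrophage genes, from 5.41 to 6.63 for 3 erythroid genes and from 6.18 to 7.78 for 4 fibroblast and epithelial genes. The highest of the lymphocyte genes, CD79A, read 6.84 and 6.87 untreated and 7.37 to 7.69 after ATRA. The part of other cell types in the results below was not tested. The files used here hold no detection call. The first principal component held 57.12% of the variance and set all 6 untreated arrays, with scores from -89.92 to -84.7, apart from all 12 ATRA arrays.

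Metallothioneins are small, cysteine-rich proteins that hold zinc and copper in metal-thiolate clusters, buffer free zinc in the cell and scavenge oxidants. Their genes lie in a cluster and are switched on when zinc or cadmium rises: MTF1, a zinc-finger protein that senses zinc, binds short metal response elements in their promoters. SLC30A proteins (ZnT) lower cytosolic zinc by moving it out of the cell or into vesicles, Golgi and other compartments. SLC39A proteins (ZIP) do the reverse and bring zinc into the cytosol from outside or from stores. Neutrophils are known for zinc-binding proteins of the S100 family, which they hold in large amounts.

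The promoters are shown because the metallothionein genes are the textbook case of zinc-responsive transcription. Each is the 250 bases before the annotated start, from RefSeq (GRCh38.p14), 5′ to 3′ on the strand of the gene. Capitals mark matches to the core of the metal response element, searched as TGCACNC and TGCGCNC, and on the opposite strand as GNGTGCA and GNGCGCA. No matches overlapped. The first 3 belong to genes that fell with ATRA in every comparison below, MT1B fell in fewer, and SLC30A1 is a zinc exporter known as an MTF1 target.
MT2A, chr16:56608334-56608583, + strand: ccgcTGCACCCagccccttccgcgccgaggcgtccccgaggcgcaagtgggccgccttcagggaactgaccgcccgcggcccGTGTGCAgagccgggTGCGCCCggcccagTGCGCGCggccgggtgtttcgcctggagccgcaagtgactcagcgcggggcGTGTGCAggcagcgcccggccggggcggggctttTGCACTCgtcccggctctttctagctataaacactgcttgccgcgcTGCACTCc
MT1X, chr16:56682220-56682469, + strand: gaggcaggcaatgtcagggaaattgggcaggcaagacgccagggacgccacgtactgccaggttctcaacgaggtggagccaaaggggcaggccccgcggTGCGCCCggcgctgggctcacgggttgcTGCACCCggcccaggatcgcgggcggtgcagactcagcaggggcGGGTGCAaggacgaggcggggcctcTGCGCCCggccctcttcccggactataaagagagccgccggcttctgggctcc
MT1H, chr16:56669564-56669813, + strand: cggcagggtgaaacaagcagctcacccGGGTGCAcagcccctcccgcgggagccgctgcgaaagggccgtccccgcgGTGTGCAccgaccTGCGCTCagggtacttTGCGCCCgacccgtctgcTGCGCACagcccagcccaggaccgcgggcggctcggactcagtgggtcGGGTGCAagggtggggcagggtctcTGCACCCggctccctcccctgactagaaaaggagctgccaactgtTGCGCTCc
MT1B, chr16:56651636-56651885, + strand: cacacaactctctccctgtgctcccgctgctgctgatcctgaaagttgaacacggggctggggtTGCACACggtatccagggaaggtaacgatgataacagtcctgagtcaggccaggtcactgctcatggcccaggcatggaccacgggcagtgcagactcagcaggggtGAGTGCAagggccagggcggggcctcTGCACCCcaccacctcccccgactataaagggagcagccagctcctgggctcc
SLC30A1, chr1:211579162-211579411, - strand: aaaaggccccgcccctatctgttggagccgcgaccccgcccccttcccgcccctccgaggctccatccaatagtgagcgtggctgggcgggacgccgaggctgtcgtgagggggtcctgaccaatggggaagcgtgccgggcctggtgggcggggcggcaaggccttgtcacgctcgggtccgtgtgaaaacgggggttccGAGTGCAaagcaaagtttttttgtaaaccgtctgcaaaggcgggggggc

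The MT2A window held 7 matches, MT1X 4, MT1H 8 and MT1B 3. Of all 35116 RefSeq promoter windows of this length, 24.8% held at least 1 match, 1.58% at least 3, 0.37% at least 4, 0.0313% at least 7 and 0.0171% at least 8. Several matches stood at like distances from the start: a match on the strand of the gene began at -53 in MT1X, MT1H and MT1B and at -54 in MT2A. A match on the opposite strand began at -78 in MT1X and MT1H and at -79 in MT1B, and at -88 in MT2A. MT2A and MT1H each held a further match at -8. RefSeq promoters were matched for 26 of the 34 genes, and MT1E, MT1F, MT1G, MT1M and MT3 are named only. SLC30A8, SLC39A4 and SLC39A14, the last of which fell most among the zinc transporters, were left out of the search. Of the SLC30A genes, 9 were matched through 11 windows: 5 held a match in at least 1 window, and SLC30A2 alone held 3 or more. Of the SLC39A genes, 12 were matched through 19 windows: 5 held a match in at least 1 window and 0 held 3 or more. The shares above count windows, so these counts of genes cannot be set beside them directly. The MTF1 window held 0. A match is a run of letters, not a tested site.

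**Figure D1:**
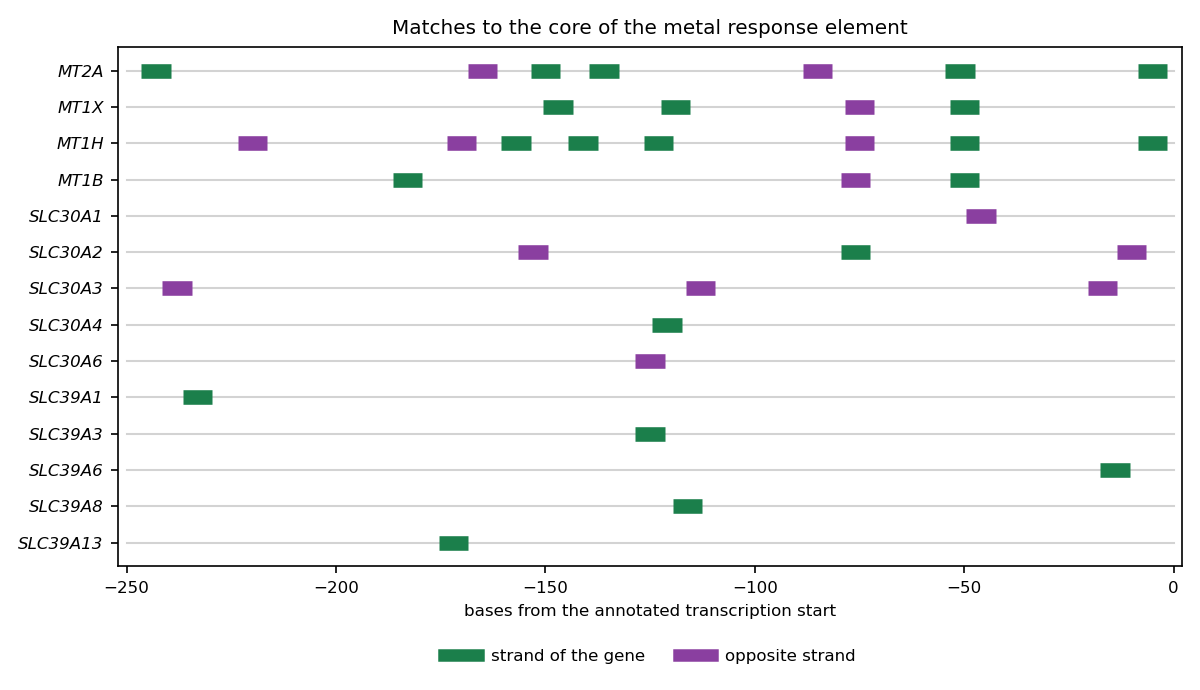
Position of each match to the metal response element core in the 250 bases before the annotated start (x axis, bases from the start), for the 14 genes with at least 1 match; colour gives the strand relative to the gene, and the SLC30A3 row overlays several promoters. The 4 metallothioneins hold 3 to 8 matches, with a match near -53 in each, while most transporters hold 1.

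Most of the measured metallothioneins lost signal with ATRA in both kinds of cell. A gene was called where limma's adjusted p, over all probe sets, was under 0.05. At 72 h, 6 of the 9 metallothioneins were called lower in wild-type cells (MT2A, MT1X, MT1F, MT1G, MT1H and MT1B), against 21% of all probe sets, and 5 of 9 in TG2 knockout cells (the same without MT1B), against 19.2%. At 48 h, 6 of 9 were called lower in each, the same 6 genes, against 19.6% of all probe sets in wild-type and 19.9% in TG2 knockout cells. The median change of the 9 was -1.32 at 48 h and -1.18 at 72 h in wild-type cells, and -1.38 and -1.31 in TG2 knockout cells, where the medians over all probe sets lay between 0.1 and 0.14. The wild-type and TG2 knockout comparisons have separate controls, but the 48 h and 72 h comparisons of a cell line share theirs. In bulk RNA, fewer cells with a transcript and less of it per cell cannot be told apart.

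MT2A, a broadly expressed isoform, had the highest signal among the metallothionein probe sets, a rank that probe affinity can set. MT2A on the wild-type arrays was 11.93, 12.01 and 11.97 without ATRA, 10.14, 10.12 and 9.92 after 48 h and 9.91, 10.11 and 9.93 after 72 h. TG2 knockout cells gave 12.2, 12.15 and 12.13 without ATRA, 10.12, 10.5 and 9.66 after 48 h and 9.6, 10.13 and 9.63 after 72 h. All 12 ATRA values lay below all 6 untreated ones. The change was -1.91 ± 0.17 (SE) at 48 h and -1.99 ± 0.17 at 72 h in wild-type cells (3.76-fold and 3.96-fold lower, limma adjusted p = 3.58e-07 and 1.99e-07). In TG2 knockout cells it was -2.07 and -2.37, or 4.19-fold and 5.18-fold lower (adjusted p = 1.86e-07 and 4.34e-08). Both other MT2A probe sets were also called lower in all 4 comparisons, at 72 h by -2.5 and -1.91 in wild-type and by -3.02 and -2.29 in TG2 knockout cells.

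MT1F had the largest fall in TG2 knockout cells among the 9 metallothionein probe sets taken here, though another MT2A probe set fell further at 72 h. The wild-type arrays gave MT1F values of 9.96, 10.0 and 10.13 untreated, then 7.86, 7.68 and 7.93 at 48 h and 8.03, 7.79 and 7.92 at 72 h. On the TG2 knockout side MT1F was 10.41, 10.35 and 10.25, then 7.66, 7.81 and 7.65 at 48 h and 7.69, 7.75 and 7.92 at 72 h. The ATRA groups were tight, all 12 values lying between 7.65 and 8.03, and the untreated TG2 knockout arrays were each above the untreated wild-type arrays. The change was -2.21 ± 0.11 at 48 h and -2.12 ± 0.11 at 72 h in wild-type cells (4.62-fold and 4.34-fold lower, adjusted p = 4.92e-10 and 7.71e-10). In TG2 knockout cells it was -2.63 and -2.55, or 6.19-fold and 5.86-fold lower (adjusted p = 1.21e-10 and 1.17e-10).

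MT1X is a further zinc-inducible isoform. In wild-type cells MT1X read 9.81, 9.83 and 9.78 untreated, 8.2, 8.38 and 8.18 at 48 h and 8.0, 8.09 and 8.02 at 72 h. The TG2 knockout arrays read 9.92, 10.02 and 10.0 untreated, 8.1, 8.8 and 7.47 at 48 h and 7.74, 8.19 and 7.7 at 72 h. No ATRA array reached the untreated arrays, but the TG2 knockout arrays at 48 h were far apart, replicate 2 reading 8.8 and replicate 3 reading 7.47. The change was -1.55 ± 0.22 at 48 h and -1.77 ± 0.22 at 72 h in wild-type cells, and -1.86 and -2.1 in TG2 knockout cells (2.94-fold, 3.41-fold, 3.62-fold and 4.3-fold lower), with adjusted p from 4.79e-05 for the first to 2.7e-06 for the last.

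MT1G and MT1H lie in the same gene cluster. MT1G on the wild-type arrays was 7.55, 7.7 and 7.77 without ATRA, 6.42, 6.03 and 6.39 after 48 h and 5.8, 6.37 and 6.19 after 72 h. TG2 knockout cells gave 7.79, 7.8 and 7.81 without ATRA, 6.28, 6.8 and 6.19 after 48 h and 5.93, 6.58 and 5.9 after 72 h. MT1G changed by -1.39 ± 0.2 and -1.55 ± 0.2 in wild-type and by -1.38 and -1.66 in TG2 knockout cells (adjusted p from 5.75e-05 to 9.8e-06), with no overlap between ATRA and untreated arrays. The wild-type arrays gave MT1H values of 6.79, 6.75 and 6.99 untreated, then 5.98, 4.98 and 5.61 at 48 h and 5.84, 5.87 and 5.29 at 72 h. On the TG2 knockout side MT1H was 6.74, 6.9 and 7.02, then 5.69, 5.48 and 5.18 at 48 h and 5.07, 5.39 and 6.26 at 72 h. The MT1H change had the largest SE of the 9 metallothioneins, but all 12 ATRA values stayed below the 6 untreated values. Its change was -1.32 ± 0.28 and -1.18 ± 0.28 in wild-type and -1.44 and -1.31 in TG2 knockout cells (adjusted p = 0.00142, 0.00291, 0.000703 and 0.00145).

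MT1B moved less. In wild-type cells MT1B read 7.09, 7.31 and 7.24 untreated, 6.59, 6.55 and 6.58 at 48 h and 6.2, 6.72 and 6.89 at 72 h. The TG2 knockout arrays read 7.23, 7.22 and 7.24 untreated, 6.65, 7.0 and 6.16 at 48 h and 7.16, 6.73 and 6.54 at 72 h. All its ATRA values except 1 lay below every untreated value, the exception being TG2 knockout replicate 1 at 72 h, which read 7.16 against 7.09 in untreated wild-type replicate 1. The change was -0.64 ± 0.2, -0.61 ± 0.2 and -0.63 ± 0.2 in the 3 comparisons that called it (adjusted p = 0.0212 and 0.0241 for wild-type cells at 48 h and 72 h, 0.0224 in TG2 knockout cells at 48 h) and -0.42 ± 0.2 in TG2 knockout cells at 72 h (adjusted p = 0.109). These calls stood near the threshold and ended when single arrays were left out, in some cases with the change almost as before. In wild-type cells the call at 48 h ended without untreated replicate 2 (-0.59, adjusted p = 0.0706), untreated replicate 3 (-0.63, 0.0593) or ATRA replicate 2 (-0.63, 0.0559). At 72 h it ended without untreated replicate 2 (-0.56, 0.0765), untreated replicate 3 (-0.6, 0.0643) or ATRA replicate 1 (-0.41, 0.124). In TG2 knockout cells at 48 h it ended without any of the 3 untreated arrays (-0.62 to -0.63, adjusted p from 0.0543 to 0.0562) or without ATRA replicate 3 (-0.41, 0.113). Quantile normalization also ended it at 72 h in wild-type cells (-0.53, 0.0588) and at 48 h in TG2 knockout cells (-0.55, 0.0547).

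MT1E and MT1M were called in no comparison. MT1E on the wild-type arrays was 6.77, 6.86 and 6.62 without ATRA, 6.53, 7.27 and 6.84 after 48 h and 6.22, 6.51 and 6.98 after 72 h. TG2 knockout cells gave 6.82, 6.7 and 7.13 without ATRA, 6.82, 7.08 and 6.54 after 48 h and 6.85, 6.98 and 6.77 after 72 h. The ATRA and untreated values of MT1E overlapped, and its changes ran from -0.18 to 0.13. The wild-type arrays gave MT1M values of 5.3, 5.49 and 5.83 untreated, then 5.51, 5.6 and 5.9 at 48 h and 5.18, 5.44 and 5.62 at 72 h. On the TG2 knockout side MT1M was 5.67, 5.34 and 5.03, then 5.54, 5.74 and 5.4 at 48 h and 5.54, 5.71 and 5.38 at 72 h. Those of MT1M overlapped too, with changes from -0.13 to 0.21, and its low signal limits what can be read from it.

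MT3, known mainly from brain and as a neuronal growth-inhibitory factor, went the other way. In wild-type cells MT3 read 7.24, 7.29 and 7.17 untreated, 7.31, 7.7 and 7.8 at 48 h and 7.63, 7.59 and 7.77 at 72 h. The TG2 knockout arrays read 7.04, 7.13 and 7.3 untreated, 7.59, 8.06 and 7.68 at 48 h and 7.63, 7.45 and 7.54 at 72 h. Every ATRA value lay above every untreated value, from 7.31 up against 7.3 at most, a narrow gap. It was called higher in wild-type cells at 72 h (change 0.43 ± 0.14, adjusted p = 0.0231) and in TG2 knockout cells at 48 h (0.62, adjusted p = 0.00271) and 72 h (0.38, adjusted p = 0.0413), and in wild-type cells at 48 h the change was 0.37 (adjusted p = 0.0509). The call in wild-type cells at 72 h ended without untreated replicate 1 (0.43, adjusted p = 0.0557), untreated replicate 3 (0.4, 0.0762) or ATRA replicate 3 (0.38, 0.0794). The call in TG2 knockout cells at 72 h ended without untreated replicate 1 (0.33, 0.14), untreated replicate 2 (0.37, 0.101), ATRA replicate 1 (0.34, 0.117) or ATRA replicate 3 (0.38, 0.0824). The call at 48 h in TG2 knockout cells held without each array in turn. In wild-type cells at 48 h quantile normalization called MT3 higher (0.5, adjusted p = 0.0244). Centring each array on its median did so too (0.34, 0.04883), but ended the call in TG2 knockout cells at 72 h (0.34, 0.05045).

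**Figure D2:**
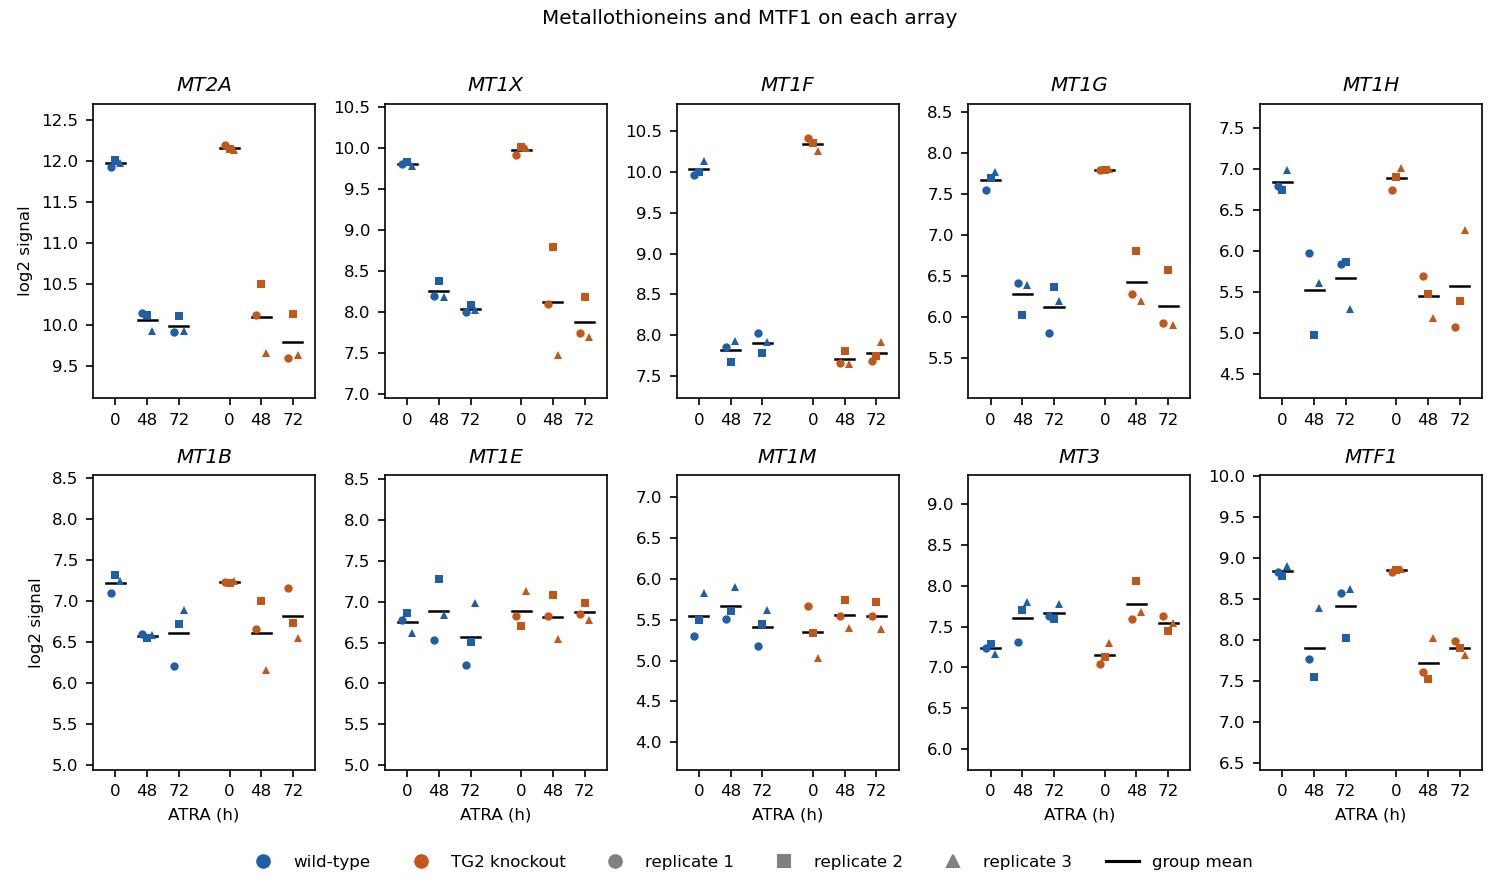
Log2 signal (y axis) of the 9 metallothioneins and MTF1 on each of the 18 arrays, by hours of ATRA (x axis) and cell type (colour); symbols give the replicate number, bars the group mean, and each panel spans the same log2 range. MT2A, MT1X, MT1F, MT1G and MT1H drop clear of their untreated arrays at both times in both kinds of cell, MT1E and MT1M do not, and MT3 sits higher by 0.37 to 0.62.

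Further metallothionein probe sets outside the 34 also fell. At 72 h, MT4 changed by -1.18 ± 0.19 in wild-type and -0.99 ± 0.19 in TG2 knockout cells, the pseudogenes MT1JP, MT1DP and MT1IP by -1.05, -0.82 and -0.39 in wild-type and by -1.43, -0.82 and -0.57 in TG2 knockout cells, and the probe set shared by NUTF2 and MT1L by -0.88 and -1.13, all called. The metallothionein 1 genes and pseudogenes are near-identical in sequence, so their probe sets may read some of the same transcripts, and the probe sequences were not used here. A count of isoforms that fell is therefore not a count of independent measurements.

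MTF1, the transcription factor itself, was called lower after ATRA, except in wild-type cells at 72 h. MTF1 on the wild-type arrays was 8.83, 8.78 and 8.91 without ATRA, 7.77, 7.55 and 8.39 after 48 h and 8.58, 8.03 and 8.62 after 72 h. TG2 knockout cells gave 8.83, 8.85 and 8.87 without ATRA, 7.61, 7.52 and 8.02 after 48 h and 7.99, 7.9 and 7.82 after 72 h. All 12 ATRA values lay under the lowest untreated value of 8.78. MTF1 changed by -0.94 ± 0.19 in wild-type cells at 48 h (adjusted p = 0.00122), and by -1.13 and -0.95 in TG2 knockout cells at 48 h and 72 h (adjusted p = 0.00024 and 0.0011). In wild-type cells at 72 h the change was -0.43 ± 0.19 (adjusted p = 0.0824), and at that time all 3 TG2 knockout values lay below all 3 wild-type values. Under quantile normalization that wild-type change was -0.14 (adjusted p = 0.627), while MTF1 was still called lower in the other comparisons. The change from 48 h to 72 h in wild-type cells was 0.51 (adjusted p = 0.761), and was not called.

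Among the 10 SLC30A genes, 3 fell in every comparison: SLC30A5, SLC30A6 and SLC30A7, the transporters that load zinc into the Golgi and the secretory pathway, where SLC30A5 and SLC30A6 are known to work as a pair. The wild-type arrays gave SLC30A6 values of 9.57, 9.52 and 9.54 untreated, then 8.23, 7.93 and 7.97 at 48 h and 8.02, 7.57 and 7.94 at 72 h. On the TG2 knockout side SLC30A6 was 9.5, 9.51 and 9.57, then 7.86, 7.0 and 8.4 at 48 h and 8.13, 8.1 and 8.2 at 72 h. The untreated SLC30A6 values were within 0.07 of each other, while TG2 knockout replicate 2 at 48 h, at 7.0, was the lowest of all arrays. Its change was -1.5 ± 0.23 and -1.7 ± 0.23 in wild-type and -1.77 and -1.38 in TG2 knockout cells (2.83-fold, 3.25-fold, 3.42-fold and 2.61-fold lower, adjusted p from 0.000221 to 2.19e-05). In wild-type cells SLC30A7 read 10.06, 10.11 and 10.08 untreated, 9.25, 8.87 and 8.73 at 48 h and 9.01, 8.49 and 8.82 at 72 h. The TG2 knockout arrays read 10.13, 10.09 and 10.21 untreated, 8.83, 8.14 and 9.02 at 48 h and 8.56, 8.98 and 8.69 at 72 h. Again no ATRA value came near the untreated ones, and the lowest was TG2 knockout replicate 2 at 48 h. SLC30A7 changed by -1.13 ± 0.2 and -1.31 ± 0.2 in wild-type and by -1.48 and -1.4 in TG2 knockout cells (adjusted p from 0.000279 to 2.43e-05). SLC30A5 changed by -0.84 ± 0.17 and -0.82 in wild-type and by -0.9 and -0.67 in TG2 knockout cells (adjusted p from 0.000635 to 0.00573), with group means from 8.22 to 9.21. Quantile normalization ended the last of these calls (-0.39, adjusted p = 0.0755).

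SLC30A4, which moves zinc into vesicles, was called higher in all 4 comparisons, by 0.62 and 0.48 ± 0.19 in wild-type and by 0.49 and 0.56 in TG2 knockout cells (adjusted p from 0.0169 to 0.0493), but its signal was in the dimmest of 4 equal classes of probe sets by mean signal, with group means from 4.34 to 5.0. TG2 knockout cells at 48 h also had higher calls for SLC30A3, the synaptic vesicle transporter (0.55, group means from 6.52 to 7.07), and SLC30A8, the insulin granule transporter (0.48, group means from 4.67 to 5.15). These higher calls were not firm. The SLC30A4 call ended without any of 3 arrays at 48 h in wild-type cells (untreated replicate 2, ATRA replicates 2 and 3, adjusted p from 0.0571 to 0.0821) and without any of the arrays except ATRA replicate 2 at 72 h (0.0845 to 0.174). In TG2 knockout cells it ended at 48 h without any array except ATRA replicate 3 (0.0736 to 0.175), and at 72 h without untreated replicates 1 or 2 or ATRA replicates 1 or 3 (0.0568 to 0.113). Under quantile normalization its call held in the wild-type 48 h comparison alone, the other changes being 0.32, 0.31 and 0.37. The SLC30A3 call ended without untreated replicates 1 or 2 or ATRA replicates 1 or 2 (0.0775 to 0.154), and the SLC30A8 call without any array except ATRA replicate 3 (0.0522 to 0.176). Centring each array on its median also ended the SLC30A3 call (0.47, adjusted p = 0.065) and the SLC30A8 call (0.4, 0.0611). Quantile normalization ended that of SLC30A8 (0.32, 0.147) but not that of SLC30A3. SLC30A1, the plasma membrane exporter whose promoter is printed above, was called in no comparison: its wild-type arrays read 7.85, 7.81 and 7.95 untreated and 7.69, 7.46 and 7.6 at 72 h, and its TG2 knockout arrays 7.95, 7.85 and 7.73 and 8.02, 7.63 and 7.71. Its change was -0.26 ± 0.13 and -0.29 ± 0.13 in wild-type cells and -0.25 and -0.06 in TG2 knockout cells (adjusted p from 0.0926 to 0.754). SLC30A2, SLC30A9, known from mitochondria, and SLC30A10, a manganese exporter, were called in none either, with group means from 5.48 to 5.77, from 9.2 to 9.48 and from 4.92 to 5.35. Against the background, the SLC30A calls stood near it as a group: 3 of 10 lower and 1 of 10 higher at 72 h in each cell line, where 21% and 19.2% of all probe sets were lower and 23.1% and 22.8% higher in wild-type and TG2 knockout cells. At 48 h the same 3 were lower in each line. SLC30A4 was then higher in wild-type cells, and SLC30A3, SLC30A4 and SLC30A8 in TG2 knockout cells. Of all probe sets, 19.6% and 19.9% were lower at 48 h and 19.3% and 21.5% higher.

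Among the 14 SLC39A genes, 5 fell in all 4 comparisons: SLC39A6, SLC39A8, SLC39A10, SLC39A11 and SLC39A14. SLC39A14, which takes up zinc as well as iron and manganese and is known as an acute-phase gene, fell most among the zinc transporters. SLC39A14 on the wild-type arrays was 9.19, 9.2 and 9.25 without ATRA, 7.33, 7.53 and 6.83 after 48 h and 6.94, 6.94 and 6.53 after 72 h. TG2 knockout cells gave 9.25, 9.25 and 9.31 without ATRA, 7.22, 6.8 and 7.34 after 48 h and 7.03, 7.33 and 7.23 after 72 h. All untreated arrays read between 9.19 and 9.31 and no ATRA array exceeded 7.53. The change was -1.98 ± 0.17 at 48 h and -2.41 ± 0.17 at 72 h in wild-type cells (3.95-fold and 5.32-fold lower, adjusted p = 3.72e-07 and 4.26e-08), and -2.15 and -2.07 in TG2 knockout cells (4.44-fold and 4.21-fold lower, adjusted p = 1.89e-07 and 2.77e-07).

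SLC39A11 belongs to a separate branch of the family. The wild-type arrays gave SLC39A11 values of 8.99, 8.93 and 9.04 untreated, then 7.75, 7.71 and 7.5 at 48 h and 7.5, 7.62 and 7.25 at 72 h. On the TG2 knockout side SLC39A11 was 9.05, 8.95 and 8.75, then 7.65, 7.17 and 7.54 at 48 h and 7.72, 7.73 and 7.61 at 72 h. Its changes of -1.33 ± 0.14 and -1.53 in wild-type and -1.46 and -1.23 in TG2 knockout cells were far larger than the spread within groups (adjusted p from 3.44e-07 to 4.01e-06). SLC39A6 and SLC39A10 are related importers of the plasma membrane that can form a complex. In wild-type cells SLC39A6 read 8.41, 8.45 and 8.55 untreated, 7.28, 7.06 and 6.93 at 48 h and 6.67, 7.06 and 6.98 at 72 h. The TG2 knockout arrays read 8.26, 8.36 and 8.34 untreated, 7.37, 6.83 and 7.34 at 48 h and 7.22, 7.43 and 7.28 at 72 h. SLC39A6 changed by -1.38 ± 0.15 and -1.57 in wild-type and by -1.14 and -1.01 in TG2 knockout cells (adjusted p from 6.47e-07 to 6.35e-05). SLC39A10 on the wild-type arrays was 8.38, 8.49 and 8.48 without ATRA, 7.89, 7.35 and 6.99 after 48 h and 7.25, 7.47 and 7.08 after 72 h. TG2 knockout cells gave 8.43, 8.47 and 8.52 without ATRA, 7.96, 6.72 and 7.59 after 48 h and 7.12, 8.08 and 6.76 after 72 h. SLC39A10 was the least even of the 5, the TG2 knockout arrays at 72 h running from 6.76 to 8.08, and its changes of -1.04 ± 0.31, -1.18, -1.05 and -1.15 had adjusted p of 0.0158, 0.00648, 0.0143 and 0.00813. Its call ended at 48 h in wild-type cells without ATRA replicate 3 (-0.83, adjusted p = 0.077) and in TG2 knockout cells without ATRA replicate 2 (-0.7, 0.0858), and under quantile normalization at 48 h in both (-0.83 and -0.85, adjusted p = 0.064 and 0.0591). SLC39A8, an importer of zinc, manganese and cadmium, is close kin to SLC39A14. The wild-type arrays gave SLC39A8 values of 10.82, 10.81 and 10.83 untreated, then 9.94, 9.62 and 9.58 at 48 h and 9.63, 9.82 and 9.46 at 72 h. On the TG2 knockout side SLC39A8 was 10.88, 10.85 and 10.85, then 9.98, 9.42 and 9.91 at 48 h and 9.54, 10.05 and 9.8 at 72 h. SLC39A8 values after ATRA stayed between 9.42 and 10.05, against 10.81 to 10.88 untreated, and the change was -1.11 ± 0.15, -1.18, -1.09 and -1.06 (adjusted p from 1.42e-05 to 5.14e-05).

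The remaining 9 SLC39A genes moved less on the deposited values. SLC39A13, a Golgi and endoplasmic reticulum transporter, was called higher in wild-type cells at 48 h (0.41 ± 0.12) and in TG2 knockout cells at 48 h (0.33) and 72 h (0.4), with group means from 7.12 to 7.59. SLC39A7, which releases zinc from the endoplasmic reticulum, was called higher in wild-type cells at 48 h (0.49 ± 0.14, adjusted p = 0.00992), and so was SLC39A5 (0.33 ± 0.13, adjusted p = 0.0456), with group means from 8.62 to 9.17 and from 5.59 to 6.13. SLC39A9, of the Golgi, was called lower in TG2 knockout cells at 48 h (-0.57 ± 0.19), where its arrays read 9.3, 8.42 and 9.49, so replicate 2 stood below the others, and the change was -0.25 without it (adjusted p = 0.0886) and -0.28 under quantile normalization (0.212). SLC39A3 was called lower in TG2 knockout cells at 72 h (-0.37 ± 0.13), with group means from 7.78 to 8.15, and by -0.16 under quantile normalization (adjusted p = 0.412). Of these calls, that of SLC39A7 held without each array in turn. That of SLC39A5 ended without any of its 6 arrays (adjusted p from 0.0731 to 0.118). The SLC39A13 call ended in wild-type cells without untreated replicate 1 (0.0526), and in TG2 knockout cells at 48 h without any array except ATRA replicate 3 (0.0831 to 0.145) and at 72 h without ATRA replicate 2 (0.069). The SLC39A9 call also ended without any of the untreated arrays (0.0528 to 0.0677), and that of SLC39A3 without untreated replicates 1 or 2 or ATRA replicates 1 or 2 (0.087 to 0.103). SLC39A1, SLC39A2, SLC39A4, known for the intestinal zinc deficiency acrodermatitis enteropathica, and SLC39A12 were called in no comparison, with group means from 9.11 to 9.55, from 4.42 to 4.94, from 7.1 to 7.45 and from 4.19 to 4.49. Quantile normalization added calls. SLC39A7 was then called higher in every comparison, by 0.76 and 0.57 in wild-type and by 0.62 and 0.61 in TG2 knockout cells. SLC39A1 was called higher by 0.58 and 0.59 in wild-type cells and by 0.45 in TG2 knockout cells at 72 h. In wild-type cells at 72 h SLC39A13 was also called higher (0.41) and SLC39A2 lower (-0.63). On the deposited values, 5 of 14 SLC39A genes were called lower and 3 higher in wild-type cells at 48 h. The split was 5 and 0 at 72 h, and 6 and 1 at each time in TG2 knockout cells. Over all probe sets, 19.6% were lower and 19.3% higher at 48 h and 21% and 23.1% at 72 h in wild-type cells, and 19.9% and 21.5%, then 19.2% and 22.8%, in TG2 knockout cells.

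**Figure D3:**
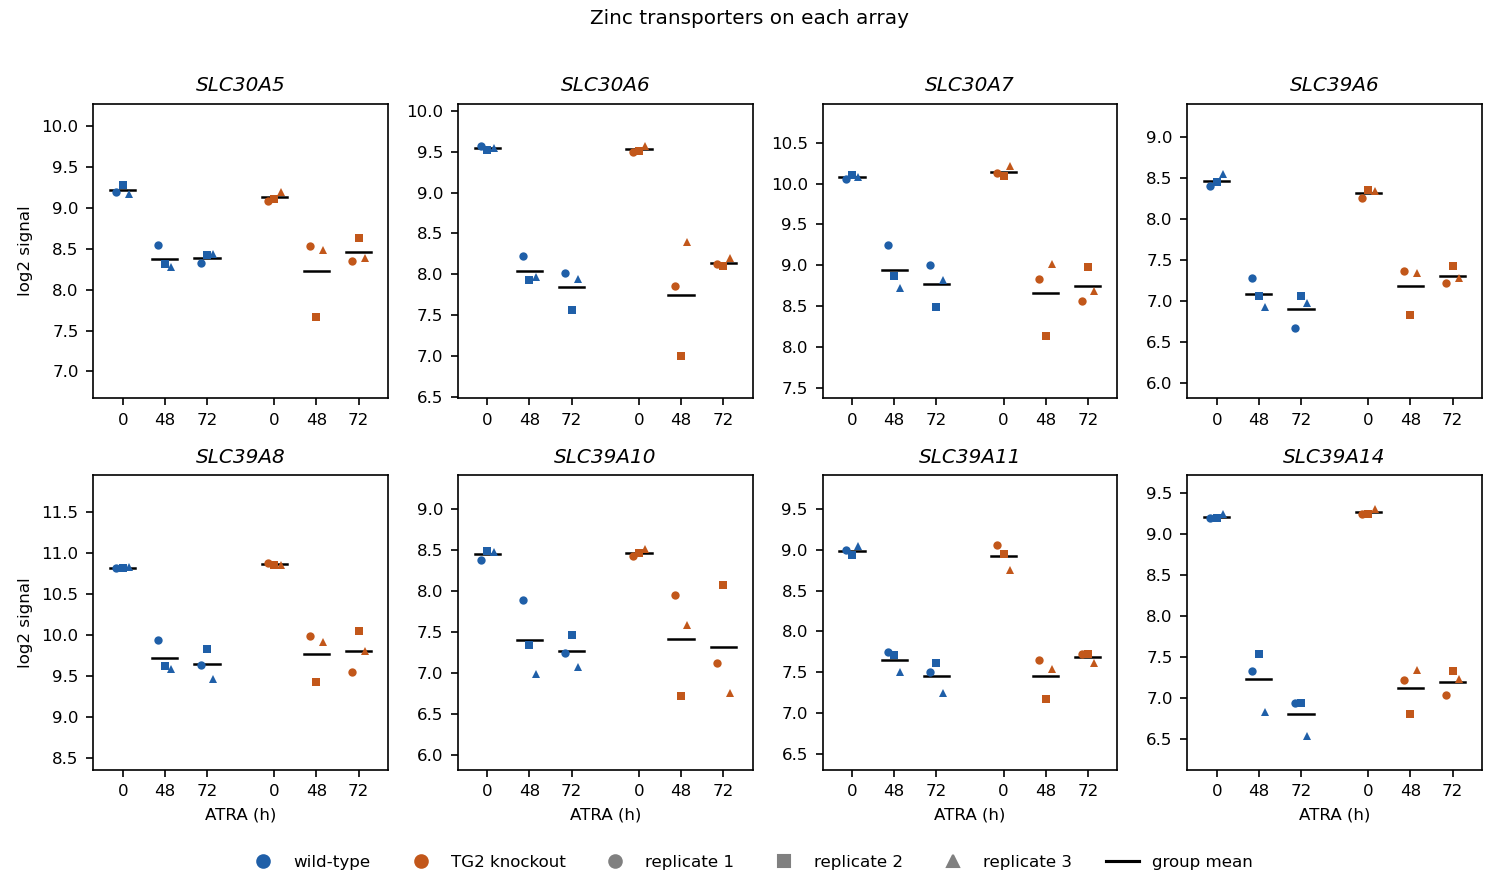
Log2 signal (y axis) of the 8 zinc transporters called lower in all 4 comparisons, on each of the 18 arrays, by hours of ATRA (x axis) and cell type (colour); symbols give the replicate number, bars the group mean. All ATRA values lie below the untreated ones, and TG2 knockout replicate 2 at 48 h is the lowest array of its group for each of the 8 genes.

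Over all 34 genes, 14 were called lower and 2 higher in wild-type cells at 72 h, where 44% of all probe sets were called in either direction, and 15 and 3 in TG2 knockout cells, where 42% were. At 48 h, 15 were lower and 4 higher in wild-type cells, and 16 and 5 in TG2 knockout cells. Of all probe sets, 38.9% and 41.4% were called at 48 h in wild-type and TG2 knockout cells, 19.3% and 21.5% higher. Of the called ones, 12 fell at least 2-fold in each comparison except TG2 knockout cells at 48 h, where 13 did; over all probe sets 8.24%, 9.36%, 7.95% and 7.45% did so (wild-type 48 h and 72 h, then TG2 knockout 48 h and 72 h). With each array centred on its median, the TG2 knockout split at 48 h became 16 lower and 1 higher. Brightness bears on these counts. With the probe sets split by mean signal into 4 classes of equal size, 14 of the 34 genes were in the brightest class, in which 43.3% of all probe sets were called lower in wild-type cells at 72 h and the median change was -0.27, while 4.54% of the dimmest class were called lower and its median change was 0.39. Within that brightest class, 8 of the 14 genes were lower, and within the next 5 of 11, against 25.6% of its probe sets. The SD over all probe sets was 2.39 to 2.4 on the untreated arrays and 2.12 to 2.28 on the ATRA arrays, so the arrays differ in range along with the treatment, and its part in the calls was tested only through quantile normalization. Under that normalization MT2A changed at 72 h by -1.85 in wild-type and -2.27 in TG2 knockout cells, and MT1F by -1.86 and -2.36, all still called.

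**Figure D4:**
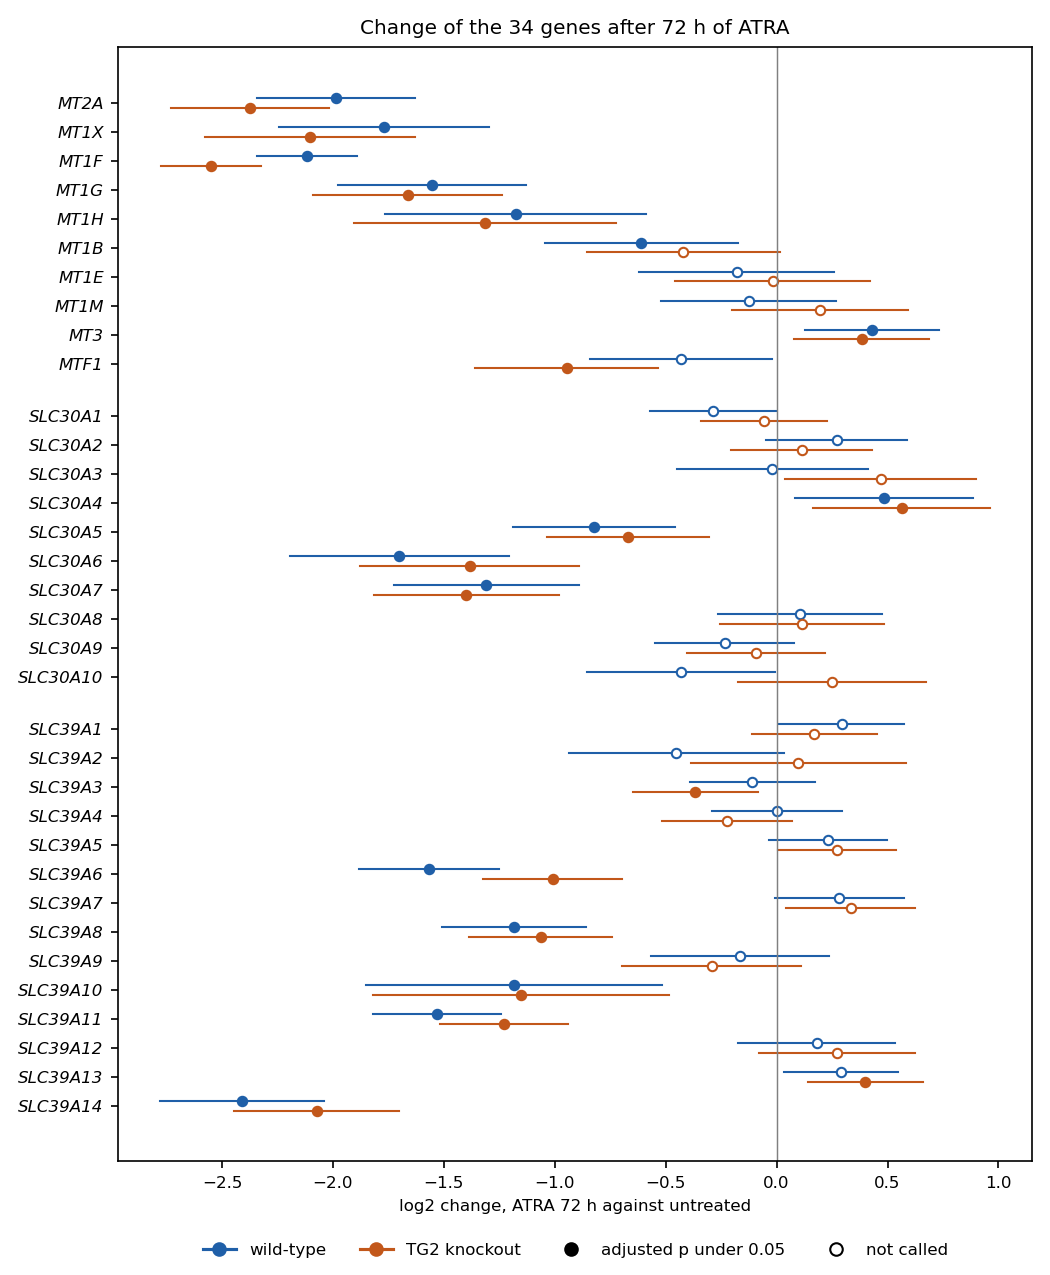
Log2 change at 72 h of ATRA against untreated cells (x axis) for each of the 34 genes, with 95% confidence intervals from limma, in wild-type (blue) and TG2 knockout cells (orange); filled points are called at adjusted p under 0.05. MT2A, MT1F, MT1X, SLC30A6 and SLC39A14 lie far left of 0 in both, and the intervals of the 2 kinds of cell overlap for most genes.

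Wild-type and TG2 knockout cells were then compared at each time. None of the 34 genes was called: 0 among untreated cells, 0 at 48 h and 0 at 72 h, by limma's adjusted p, against 0.00601%, 0.021% and 0.0961% of all probe sets called in either direction. At an unadjusted p under 0.05 there were 1, 3 and 4. The 1 in untreated cells was MT1F, higher in TG2 knockout cells by 0.31 ± 0.11 (95% interval 0.08 to 0.53, adjusted p = 1), with the 3 arrays of each kind not overlapping. For MT2A the untreated difference was 0.19 (interval -0.17 to 0.55) and for MT1X 0.17 (-0.3 to 0.65), again with arrays that did not overlap. The intervals and adjusted p rest on a spread pooled over all groups, and the ATRA arrays varied more. For MT2A the SD was 0.04 and 0.036 in the untreated groups (wild-type and TG2 knockout), against 0.11 to 0.42 in the ATRA groups. In that fit the absence of calls between untreated cells therefore does not rest on the spread of the untreated arrays alone. A fit of the untreated groups alone also called none of the 34 genes. With weights per group, MT1F was called between untreated cells, while the other 9 of 10 alternatives called none. Non-overlap between the untreated groups was seen for 5 members higher and 3 lower in TG2 knockout cells, where 8.84% and 9.3% of all probe sets gave it. The 3 at 48 h were SLC39A1 (-0.44 ± 0.13), SLC39A5 (-0.38 ± 0.13) and SLC39A9 (-0.43 ± 0.19), with adjusted p from 0.574 to 0.804. The 4 at 72 h were MTF1 (-0.51 ± 0.19, adjusted p = 0.34), SLC39A14 (0.39), SLC39A2 (0.52) and SLC39A6 (0.41 ± 0.15).

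The response itself was compared by the difference of the ATRA changes, TG2 knockout minus wild-type, and called 0 of the 34 genes at 48 h and 0 at 72 h, against 0.003% and 0% of all probe sets, with 1 and 3 at an unadjusted p under 0.05. MT1F had the response that differed most among the metallothioneins in size over error, at -0.42 ± 0.15 (interval -0.74 to -0.1) at 48 h and -0.43 ± 0.15 (interval -0.75 to -0.11) at 72 h, each with adjusted p = 0.9998. For MT2A the difference was -0.16 (interval -0.66 to 0.35) at 48 h and -0.39 (interval -0.89 to 0.12) at 72 h, and both intervals hold 0. At 72 h SLC30A10 (0.68) and SLC39A6 (0.56 ± 0.21, interval 0.11 to 1.0) also had an unadjusted p under 0.05. Between 48 h and 72 h, 0 of the 34 genes were called in wild-type and 0 in TG2 knockout cells, where 0% and 0% of all probe sets were called, and 2 in each had an unadjusted p under 0.05: MTF1 (0.51) and SLC39A14 (-0.43) in wild-type cells, SLC30A8 (-0.37) and SLC39A4 (-0.35) in TG2 knockout cells.

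The ATRA arrays differed more from each other than the untreated ones did. Their median SD over all probe sets was 0.22 to 0.24, against 0.0757 and 0.0985 untreated. On TG2 knockout replicate 2 at 48 h the metallothioneins and transporters parted. On the first principal component, wild-type replicate 1 at 48 h (17.5), TG2 knockout replicates 1 and 3 at 48 h (31.17 and 31.12) and TG2 knockout replicate 2 at 72 h (29.99) were nearest the untreated arrays, the other 8 ATRA arrays scoring from 46.27 to 56.6. The mean of the 9 metallothioneins, as a difference from their mean over the untreated arrays, did not follow that order. It was -0.99, -1.01 and -0.92 for the wild-type arrays at 48 h and -1.18, -0.99 and -0.98 at 72 h. For the TG2 knockout arrays it was -1.0, -0.68 and -1.28 at 48 h and -1.13, -0.95 and -1.09 at 72 h. TG2 knockout replicate 2 at 48 h, far from the untreated arrays at 55.49, had the smallest metallothionein fall, while replicate 3 had the largest. The same replicate 2 held the lowest SLC30A5, SLC30A6, SLC30A7, SLC39A8, SLC39A10, SLC39A11 and MTF1 values of all 18 arrays. Whether a property of that culture or array sets both was not tested. TG2 knockout replicate 2 at 72 h went otherwise, with the smallest metallothionein fall of its group (-0.95). Within that group it also held the highest SLC30A5, SLC30A7, SLC39A6, SLC39A8, SLC39A10, SLC39A11 and SLC39A14 values, though the lowest SLC30A6.

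**Figure D5:**
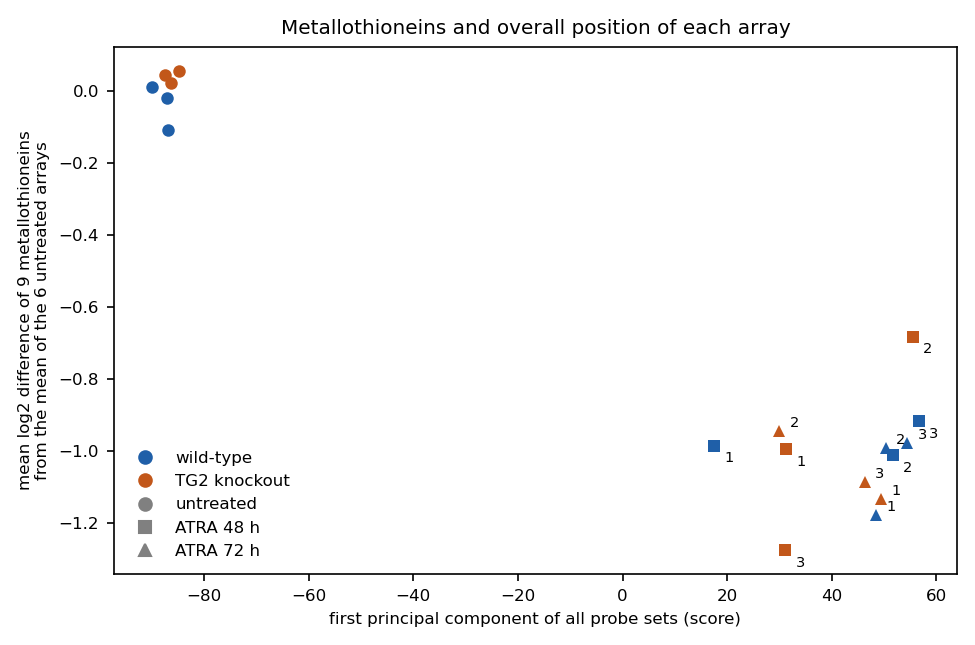
Mean log2 difference of the 9 metallothioneins from the 6 untreated arrays (y axis) against the score of each array on the first principal component of all probe sets (x axis, no unit); colour gives the cell type, symbol the time, and numbers the replicate of each ATRA array. Untreated arrays sit at the upper left, and among the ATRA arrays TG2 knockout replicates 2 (-0.68) and 3 (-1.28) at 48 h are the highest and lowest.

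Other genes of metal handling were read from lists chosen by function. At 72 h, 21% of all probe sets were called lower and 23.1% higher in wild-type cells, and 19.2% and 22.8% in TG2 knockout cells, and the shares of 3 of 10 below stand near that background. Of 10 copper genes that could be named, 3 fell at 72 h in each cell line and 0 rose: SLC31A1, the copper importer (-1.68 ± 0.17 in wild-type and -1.74 in TG2 knockout cells), COMMD1 (-1.26 and -1.3), which takes part in copper export, and ATP7B, a copper pump (-0.76 and -0.46). The median change of the copper genes was -0.23 in wild-type and -0.38 in TG2 knockout cells. Of 10 iron genes, 3 fell and 0 rose in wild-type cells, led by TFRC, the transferrin receptor (-0.68 ± 0.26, adjusted p = 0.0475), SLC11A2, an iron importer (-0.63), and SLC25A37, a mitochondrial iron carrier (-0.54), and 3 fell and 1 rose in TG2 knockout cells, where SLC11A2 was not called. Of 10 genes of the metal and oxidant stress response, 3 fell and 0 rose in wild-type and 4 fell and 0 rose in TG2 knockout cells. Among them NQO1, a quinone reductase, changed by -3.09 ± 0.26 in wild-type and by -3.33 in TG2 knockout cells, GCLM, of glutathione synthesis, by -1.23 and -0.82, and NFE2L2, the transcription factor of that response, by -0.58 and -0.69. Of 6 other genes of zinc binding or of metallothionein-like name, 2 rose and 1 fell in wild-type cells, where MTF2 (0.08), TMEM163 (-0.06) and S100A12 (0.49) were not called, and 3 rose and 1 fell in TG2 knockout cells. S100A8 rose by 3.75 ± 0.43 and 3.21 and S100A9 by 1.47 ± 0.38 and 1.27, the pair that forms calprotectin, the zinc-binding protein of neutrophils, while MT4 was the 1 that fell.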

How the data were processed

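Total RNA from 18 NB4 samples was measured on Affymetrix gene arrays, 3 per group, per the labels. The authors deposited 1 value per probe set and array, which is taken as log2 signal from its range of 0.73 to 13.56. Neither that scale nor how the authors corrected, normalized and summarised the probes is stated in the labels or files used here. Array medians ran from 6.12 to 6.26, and no further normalization was applied. Probe sets were named through the platform annotation given for these arrays: of 33297, 19460 name 1 gene, 1754 several and 12083 none. No filter on low values was used, so all 34 genes were tested. The 34 genes and all lists were chosen with earlier results of these data known.

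limma 3.58.1 (R 4.3.3) was fitted to all probe sets and all 18 arrays with a mean per group (lmFit, eBayes with trend), 2-sided, for 11 comparisons, with Benjamini-Hochberg adjustment over all probe sets within each; a gene is called at adjusted p under 0.05. The number of arrays limits the precision. The method was tried on simulated data in which few probe sets changed and all groups had the same spread. In these data many probe sets changed and the ATRA arrays varied more, so that trial cannot show how well the calls hold. Every metallothionein, MTF1 and each transporter called with a change of at least 1 is given in full, other genes by range and call, and up to 3 called genes per list. Alternatives were quantile normalization, median centring, the brighter probe sets, single-gene probe sets, another probe set of the gene, eBayes without trend or robust, only the groups compared, weights per group, a replicate block, each array left out, and 4 arrays left out together, the last chosen after seeing the data.

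Replicate numbers are shared by all groups. Deviations from the group means correlated between same-numbered wild-type and TG2 knockout arrays at 72 h (r = 0.103, 0.16 and 0.138 over probe sets). They did so less evenly at 48 h (0.196, 0.194 and 0.089). Untreated arrays showed no such correlation (-0.0601, -0.056 and -0.128), nor did ATRA against untreated arrays. Only the 72 h numbers were taken to pair the samples. With the shared block, the comparison of genotypes at 72 h still called none of the 34 genes. This cannot show what a pairing at 72 h alone would call, because the block also ties in arrays without that correlation. Some ATRA calls did change with the block, as given below. The labels give no scan date or slide. Promoter windows are from RefSeq (GRCh38.p14).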

Additional observations from a re-analysis of the deposited data

How the results depend on the processing

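Of 1232 settings tried on the 74 called values of single genes, 1135 kept the call, 97 lost it and 0 reversed the direction. The tally includes the setting that takes another probe set of the gene. Among these genes only MT2A has another probe set with values of its own. For the others that setting repeats the main result, so it kept the call by construction and adds to the 1135. Calls that a setting added are not in this tally. MT2A, MT1X, MT1F, MT1G, MT1H, SLC30A6, SLC30A7, SLC39A6, SLC39A8, SLC39A11 and SLC39A14 kept theirs in all 4 ATRA comparisons under every setting. The counts called (19, 16, 21 and 18 of 34 in wild-type cells at 48 h and 72 h, then TG2 knockout cells) ranged over single arrays left out from 16 to 20, 13 to 18, 15 to 21 and 15 to 18. Metallothioneins called lower ranged from 5 to 6 in each comparison, and zinc transporters called lower from 7 to 8, 8 to 10, 7 to 10 and 8 to 9. The 7 counts of 0 between genotypes, of responses and between times stayed at 0 there. With the replicate block the ATRA counts were 19, 16, 20 and 19 and the other 7 were 0. It ended the calls of SLC39A5 in wild-type cells at 48 h and of SLC30A4 in wild-type cells at 72 h and TG2 knockout cells at 48 h. It also added calls in wild-type cells at both times and in TG2 knockout cells at 72 h. Weights per group called 1 gene between untreated cells, MT1F. Without the 4 ATRA arrays nearest the untreated ones on the first principal component, 7 genes were called between genotypes at 48 h, 1 at 72 h (MT2A, -0.37), 2 for the difference of response at 48 h and 9 between 48 h and 72 h in TG2 knockout cells; TG2 knockout cells at 48 h were then replicate 2 alone, assumed to vary like the other groups. The remaining alternatives kept every count within 1.5 times. The arrays carry no detection call, so low signal limits MT1M, SLC30A4 and the other dim probe sets.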
